A study of Mus musculus with 6 samples.

Results

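The ERK pathway feedback genes are 9 transcripts, Dusp5, Dusp6, Spry1, Spry2, Spry4, Spred1, Spred2, Etv4 and Etv5, taken by gene symbol from the 52550 genes of the count table. ERK1 and ERK2 are the last kinases of a cascade that runs from a growth factor receptor through Ras, Raf and MEK. Active ERK switches on genes whose products then brake the same cascade, so the transcripts of these genes are commonly read as a record of how strongly ERK has been signalling. Sprouty and Spred proteins act at or above Raf, the dual-specificity phosphatases DUSP5 and DUSP6 take phosphate off ERK itself, and ETV4 and ETV5 are transcription factors of the ETS family that are induced by ERK and carry out part of its program. In macrophages the cascade lies below the receptor for M-CSF, the growth factor on which these cells depend.

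RNA was sequenced from bone marrow-derived macrophages of MSR1 KO mice (3 libraries) and MSR1 WT mice (3 libraries), all labelled as strain C57BL/6. MSR1 is a macrophage scavenger receptor, and the knockout was carried by the mouse rather than made in the cultured cells. Marrow of both genotypes was grown in M-CSF at 25 ng/ml over 7 days, and the macrophages then spent 48 h with bone marrow stem cells (BMSCs) across a transwell membrane. The study describes the libraries as biological replicates, the labels do not tie them to mice, and the genotype of the BMSCs is not given in the sources used here. No library of macrophages without BMSCs, or of cells with ERK stimulated or inhibited, was part of the comparison. The comparison asks how the loss of MSR1 changes the macrophage transcriptome in this co-culture. ERK phosphorylation was not measured in these files, so the values below are transcript levels.

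Total counts per library ranged from 36143518 to 47417448. Msr1 itself had 2118, 1825 and 2000 counts in MSR1 KO and 7543, 9163 and 9219 counts in MSR1 WT libraries, so the 2 groups matched their labels and reads on the gene remained in the knockout. Macrophage markers were abundant in all libraries, with summed levels of 27844 to 29315 CPM in MSR1 KO and 27895 to 30715 CPM in MSR1 WT libraries over 12 of 12 markers. CPM is the standard depth-scaled count, here with the TMM factor of each library included. Markers of stromal cells were present too, and their sum was lower in MSR1 KO (2122 to 2752 CPM) than in MSR1 WT libraries (2941 to 3737 CPM). In such bulk RNA, fewer cells of a type and less RNA per cell cannot be told apart.

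All 9 transcripts had enough counts for the test. In MSR1 KO libraries the level of Spry1 was lower by 54.2% and that of Etv5 was lower by 21.5%. Thus 2 of 9 members were lower at an adjusted p under 0.05 in edgeR's quasi-likelihood test, against 2.66% of the 16402 genes tested. In the same edgeR test 0 of 9 members were higher, against 2.25% of all tested genes. At an unadjusted p under 0.05, 2 members were lower and 1, Dusp5, was higher, against 10.2% and 8.65% of all tested genes. DESeq2, which called more genes overall (5.17% lower and 4.39% higher), called 2 members lower and 0 higher. The edgeR count of 2 lower members was 0 with no filter on low counts and 0 with the replicate number as a block. It was 0 without each of 5 libraries in turn and 1 without MSR1 WT replicate 2. Under the study's own definition of a changed gene, a fold change above 1.5 with an unadjusted p under 0.05, 1 member (Spry1) was lower and 0 were higher, where 5.05% and 3.59% of all tested genes met it. The 3 MSR1 KO values lay below all 3 MSR1 WT values for 3 members (Spry1, Etv5 and Spred2) and above them for 1 (Dusp5), against 13.4% and 12.1% of all tested genes. The median log2 fold change was -0.21 over the 9 members and -0.0023 over all tested genes. The transcripts therefore did not move as a block: Dusp6 and Spred1, the most abundant of them, were close to level, and Dusp5 and Spry2 had positive fold changes.

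**Figure D1:**
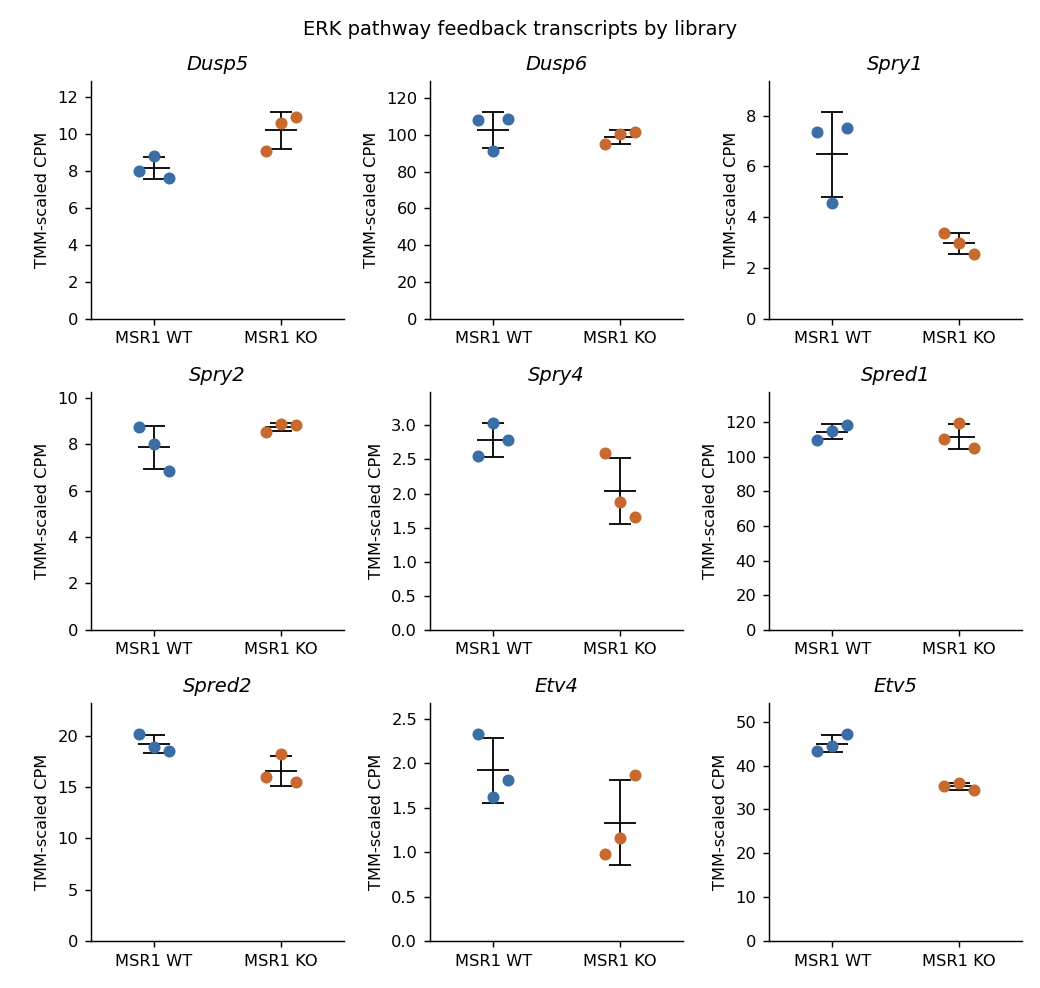
Each panel shows 1 transcript, with TMM-scaled CPM on the vertical axis from 0, 1 point per library, and the mean with its SD (n = 3) for MSR1 WT (blue) and MSR1 KO (orange). The MSR1 KO points of Spry1, Etv5 and Spred2 sit below all MSR1 WT points, those of Dusp5 sit above them, and the groups overlap in the other panels.

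Levels between genes were compared as TPM, which divide counts by the exon length of each gene. Dusp6 was the highest at 102 ± 7.61 TPM (SD over 6 libraries), higher than 91.0% of the tested genes. Spred1 followed at 53.0 ± 3.96 TPM and Etv5 at 31.2 ± 4.90 TPM. Spry2 at 12.6 ± 1.01, Spred2 at 12.3 ± 1.47 and Dusp5 at 11.7 ± 1.52 TPM formed a middle group whose order was not resolved by their spread. Spry1 stood lower at 5.19 ± 2.49 TPM, a spread that holds its difference between the genotypes. Etv4 at 1.66 ± 0.503 TPM and Spry4 at 1.62 ± 0.388 TPM were the lowest and did not differ beyond their spread. Per exon length, Dusp6 was thus the leading ERK phosphatase transcript of the set in these libraries. Etv5 was the leading ETS factor and Spry2 the leading Sprouty.

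Sprouty proteins are membrane-associated inhibitors that block the passage of the signal from receptor to Raf. Spry1 (ENSMUSG00000037211.12, GRCm38 chromosome 3 from 37639947 to 37644598, plus strand) measured 3.37, 2.96 and 2.56 CPM in MSR1 KO against 7.37, 4.55 and 7.50 CPM in MSR1 WT. The groups did not overlap, and MSR1 WT replicate 2 was the nearest to the knockout. The mean of 6.47 ± 1.67 CPM in MSR1 WT fell to 2.96 ± 0.404 CPM in MSR1 KO (SD, n = 3 each), which is -1.13 on the log2 scale (SE 0.24, 95% interval -1.67 to -0.58, edgeR adjusted p = 0.038). This rests on modest counts, 121, 118 and 119 against 304, 216 and 310. The fall kept its direction when any 1 library was left out, with log2 fold changes of -1.33 to -1.01, but its adjusted p rose above 0.05 in 5 of these 6 fits, to between 0.082 and 0.14, and stayed at 0.035 only without MSR1 WT replicate 2. With no filter on low counts it was 0.052, and with the replicate number as a block 0.087. Of the exon bases of Spry1, 24.4% are also exon bases of Gm42922 on the opposite strand. Gm42922 itself had 12 to 22 counts in MSR1 KO and 21 to 30 counts in MSR1 WT libraries, and the strand setting of the authors' counting is not given in the sources used here.

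Spry2 (chromosome 14 from 105891949 to 105896819, minus strand) did not follow Spry1. It had 8.54, 8.86 and 8.82 CPM in MSR1 KO and 8.73, 8.03 and 6.87 CPM in MSR1 WT libraries. The groups overlapped, and the log2 fold change was 0.15 (SE 0.14, 95% interval -0.17 to 0.47, edgeR adjusted p = 0.63). The interval excludes a fall of the size seen for Spry1. Spry4 (chromosome 18 from 38586268 to 38601268, minus strand) had 2.59, 1.88 and 1.66 CPM in MSR1 KO and 2.55, 3.03 and 2.78 CPM in MSR1 WT libraries. MSR1 KO replicate 1 fell among the MSR1 WT values, and the log2 fold change of -0.45 had a 95% interval of -1.01 to 0.11 (edgeR adjusted p = 0.37), so no difference was detectable at 75 to 144 counts per library. Without MSR1 KO replicate 1 it was -0.65, and Spry4 then met the study's definition.

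Because a ratio of counts within a library does not depend on scaling, Spry1 was also set against Spry2 directly. There were 0.394, 0.334 and 0.290 counts of Spry1 for each count of Spry2 with MSR1 knocked out, against 0.844, 0.567 and 1.09 in MSR1 WT. The 2 groups did not overlap, with a difference of -1.26 on the log2 scale (two-sided p = 0.1 by exact permutation, which is as small as 3 libraries against 3 allow, adjusted p = 0.30 over 6 pairs of family members). This was 1 of 6 ratios chosen after the values were seen. Spry4 against Spry2 and Spry1 against Spry4 overlapped between the genotypes (exact permutation p = 0.2 and 0.3).

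The stretches before the start sites of Spry1, which fell, and of Spry2, which did not, are shown to let the 2 Sprouty genes be compared, together with the stretch upstream of Etv5, the other transcript that fell. They were read from the RefSeq promoter table of GRCm38.p6, in windows of 250 bases before to 50 bases after a start. Windows of 7 of the 9 members were searched (8 windows, 2 of them of Etv5), and none of Spry4 or Etv4. For Etv5 only the 101 bases that lie outside the annotated gene are given. Capitals mark a match to a searched motif.

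Spry1 (chr3:37639697-37639946, plus strand): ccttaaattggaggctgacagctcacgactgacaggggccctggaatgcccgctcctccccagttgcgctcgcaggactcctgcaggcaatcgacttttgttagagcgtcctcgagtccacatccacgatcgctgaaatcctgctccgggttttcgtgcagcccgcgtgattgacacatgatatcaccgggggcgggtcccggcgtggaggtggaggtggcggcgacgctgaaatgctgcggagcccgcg
Spry2 (chr14:105896820-105897069, minus strand): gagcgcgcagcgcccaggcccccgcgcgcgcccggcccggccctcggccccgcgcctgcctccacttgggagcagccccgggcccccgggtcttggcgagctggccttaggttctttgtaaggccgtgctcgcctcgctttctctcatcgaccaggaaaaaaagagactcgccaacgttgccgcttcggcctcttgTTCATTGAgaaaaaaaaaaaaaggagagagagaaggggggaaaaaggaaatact
Etv5 (chr16:22439720-22439820, minus strand): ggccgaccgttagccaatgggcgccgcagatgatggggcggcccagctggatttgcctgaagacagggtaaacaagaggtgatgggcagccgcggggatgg

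The motifs, searched on both strands, were CCGGAA (a form of the ETS site), TGAATGAA and TCAATGAA (forms of the site of Capicua, a repressor of Etv and Sprouty genes that ERK switches off), TGANTCA (AP-1) and TGACGTCA (the cyclic AMP response element). None of these contains another. In the 8 windows, Spry2 alone held matches, a Capicua form 54 bases before its start site, read as TTCATTGA on the printed strand, and an ETS form 33 bases after it, which is not printed. Of all 32851 windows in the table, 14.9% held the ETS form, 2.03% a Capicua form, 7.81% the AP-1 form and 1.79% the cyclic AMP form. The windows of Spry1 and Etv5 held none of these letters, which says nothing of sites elsewhere or in other spellings.

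Spred proteins are relatives of Sprouty that hold the Ras inhibitor neurofibromin at the membrane. Spred1 (chromosome 2 from 117121374 to 117182279, plus strand) had 110, 119 and 105 CPM in MSR1 KO and 110, 115 and 119 CPM in MSR1 WT libraries. The values were interleaved, and the log2 fold change of -0.04 (SE 0.076, edgeR adjusted p = 0.86) had a 95% interval of only -0.21 to 0.14. Spred2 (chromosome 11 from 19924375 to 20024026, plus strand) had 15.9, 18.2 and 15.4 CPM in MSR1 KO and 20.1, 18.9 and 18.5 CPM in MSR1 WT libraries. All MSR1 KO values lay below all MSR1 WT values by a narrow margin, but the log2 fold change of -0.21 (SE 0.11, 95% interval -0.46 to 0.033) had an adjusted p of 0.33 in edgeR's quasi-likelihood test. Counts of Spred2 for each count of Spred1 were 0.144, 0.152 and 0.147 in MSR1 KO and 0.183, 0.164 and 0.156 in MSR1 WT libraries, lower in each knockout library (exact permutation p = 0.1, adjusted p = 0.30 over the 6 pairs).

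Among the phosphatases, DUSP6 works on ERK in the cytoplasm and DUSP5 in the nucleus. Dusp6 (chromosome 10 from 99263231 to 99267489, plus strand) had 94.8, 100 and 101 CPM in MSR1 KO and 108, 91.4 and 109 CPM in MSR1 WT libraries. Its lowest value was in MSR1 WT replicate 2, and the log2 fold change was -0.05 (SE 0.087, edgeR adjusted p = 0.80). With 3408 to 4715 counts per library the 95% interval was narrow, -0.25 to 0.15. Dusp5 (chromosome 19 from 53529109 to 53542431, plus strand) had 9.07, 10.6 and 10.9 CPM in MSR1 KO and 8.0, 8.78 and 7.62 CPM in MSR1 WT libraries. Each MSR1 KO library was above each MSR1 WT library, with means of 10.2 ± 0.989 and 8.13 ± 0.593 CPM (SD, n = 3 each), but the log2 fold change of 0.33 (SE 0.14, 95% interval 0.014 to 0.64) did not pass, with an unadjusted p of 0.043 and an adjusted p of 0.24 in edgeR's quasi-likelihood test. Exon bases of AC137853.2 on the opposite strand cover 22.1% of those of Dusp5. Counts of Dusp6 for each count of Dusp5 were 10.45, 9.48 and 9.28 in MSR1 KO and 13.5, 10.41 and 14.3 in MSR1 WT libraries, and the ranges overlapped narrowly (exact permutation p = 0.2).

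Etv4 and Etv5 encode ETS factors of the PEA3 group, which are induced through ERK in many tissues. Etv5 (ENSMUSG00000013089.15, chromosome 16 from 22381309 to 22439719, minus strand) had 35.4, 36.03 and 34.5 CPM in MSR1 KO and 43.3, 44.5 and 47.2 CPM in MSR1 WT libraries. The libraries of each genotype lay close together and the groups were well apart. The mean of 45.0 ± 1.95 CPM in MSR1 WT fell to 35.3 ± 0.771 CPM in MSR1 KO (SD, n = 3 each), or -0.35 on the log2 scale (SE 0.076, 95% interval -0.52 to -0.18, edgeR adjusted p = 0.040). The fall is below 1.5-fold, so it does not meet the study's definition. Its size held between -0.38 and -0.32 with any 1 library left out, and with 5 libraries the adjusted p was 0.087 to 0.13. With no filter on low counts it was 0.067, and with the replicate number as a block 0.11. Etv4 (chromosome 11 from 101769742 to 101785371, minus strand) was near the limit of what these counts resolve, with 35, 46 and 87 counts in MSR1 KO and 96, 77 and 75 counts in MSR1 WT libraries. MSR1 KO replicate 3 lay above 2 of the 3 MSR1 WT libraries on the CPM scale, and the log2 fold change of -0.52 had a 95% interval of -1.27 to 0.23 (edgeR adjusted p = 0.46). Without MSR1 KO replicate 3 it was -0.84 and met the study's definition. Counts of Etv5 for each count of Etv4 overlapped between genotypes (exact permutation p = 0.6).

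**Figure D2:**
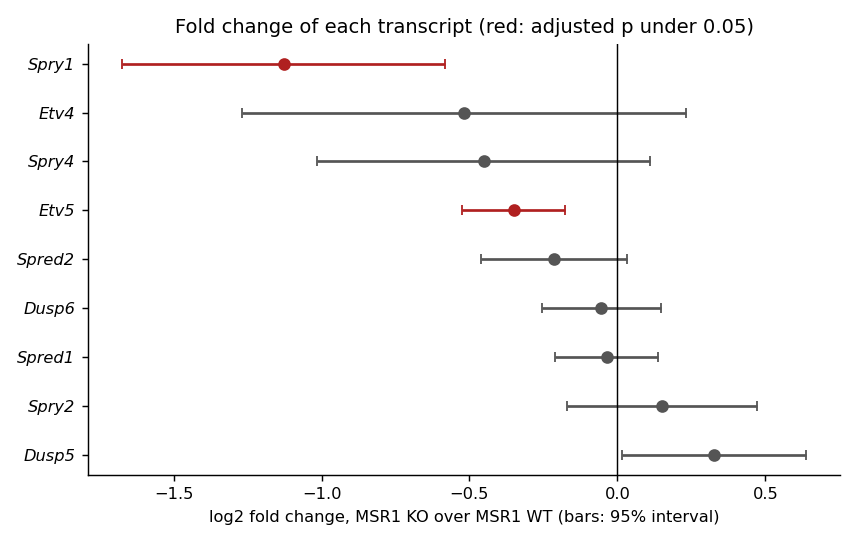
Log2 fold change of each transcript (MSR1 KO over MSR1 WT, horizontal axis) with its 95% interval from edgeR, ordered from the most negative at the top. Spry1 (-1.13) and Etv5 (-0.35) are red for an adjusted p under 0.05, the intervals of Etv4 and Spry4 are wide, and those of Dusp6 and Spred1 are narrow around 0.

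The rest of the pathway was read from lists written by hand from general knowledge. Among the receptor tyrosine kinases that feed Ras, 16 of 18 were tested, and 4 were lower and 2 higher at an adjusted p under 0.05 in edgeR, against the 2.66% and 2.25% of all genes given above, with a median log2 fold change of -0.17. At an unadjusted p under 0.05 there were 7 lower and 2 higher receptors, against 10.2% and 8.65% of all tested genes. DESeq2 called 7 lower and 2 higher, against 5.17% and 4.39%. The lower ones were Pdgfra, Pdgfrb, Egfr and Erbb2, the first 2 of which were also among the stromal markers. Pdgfra, a receptor for platelet-derived growth factor, fell from 16.2 ± 2.31 to 7.13 ± 1.11 CPM (SD, n = 3 each; log2 fold change -1.19, SE 0.16, edgeR adjusted p = 0.014). The higher ones were Kit, the receptor for stem cell factor and also on the list of mast cell markers (log2 fold change 1.04, SE 0.22, edgeR adjusted p = 0.039), and Axl, a receptor of apoptotic cell uptake (0.57, SE 0.13, edgeR adjusted p = 0.048). Pdgfrb, Egfr and Erbb2 were named after their values were seen. Fgfr2, a fibroblast growth factor receptor, had a log2 fold change of -1.04 (SE 0.26) with an adjusted p of 0.064 in edgeR's test. Csf1r, the M-CSF receptor and the one with the highest CPM of the list, had 4536 ± 24.4 CPM in MSR1 KO and 4410 ± 88.2 CPM in MSR1 WT libraries (SD, n = 3 each; log2 fold change 0.04, 95% interval -0.082 to 0.16, edgeR adjusted p = 0.75).

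The adaptors, Ras proteins and kinases of the cascade did not pass the test. Of 27 tested genes 0 were lower and 0 higher at an adjusted p under 0.05 in edgeR's quasi-likelihood test. The shares of all tested genes were only 2.66% and 2.25%. DESeq2 called 0 either way, against 5.17% and 4.39% of all tested genes. At an unadjusted p under 0.05 there were 4 lower and 0 higher of the 27, where all genes gave 10.2% and 8.65%, and the median log2 fold change was -0.03. Of the genes with the largest values, Rps6ka3, an ERK substrate kinase, had a log2 fold change of -0.59 (SE 0.23, adjusted p = 0.21), Rps6ka2 one of -0.48 (SE 0.19, adjusted p = 0.22) and the adaptor Grb2 one of 0.34 (SE 0.28, adjusted p = 0.58, all from edgeR). Rps6ka3 had 7115 counts in MSR1 WT replicate 2 against 3559 and 3235 in the other MSR1 WT libraries, and Grb2 had 16287 counts there against 7517 and 7538. Gab2, an adaptor that had with Grb2 the highest CPM of the list, had 212 ± 5.36 CPM in MSR1 KO and 201 ± 6.61 CPM in MSR1 WT libraries (SD, n = 3 each; edgeR adjusted p = 0.57).

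Among the other brakes on the pathway, 18 of 19 were tested, and 1 was lower and 1 higher at an adjusted p under 0.05 in edgeR, against 2.66% and 2.25% of all genes. At an unadjusted p under 0.05, 8 were lower and 2 higher, against 10.2% and 8.65%, and DESeq2 called 3 lower and 2 higher, against 5.17% and 4.39%. The libraries of the genotypes did not overlap for 9 brakes that were lower and 2 that were higher, against 13.4% and 12.1% of all genes. The same counts were 7 and 3 for the 16 receptors and 4 and 2 for the 27 cascade genes. They were 3 and 2 for the 11 other MAP kinase phosphatases and 7 and 2 for the 22 other ERK-responsive transcripts below. Of the 18 brakes, 14 had a negative log2 fold change, with a median of -0.24, where 50.4% of all tested genes were negative. Errfi1, an inhibitor of EGF receptors, was the lower one and fell from 83.8 ± 5.31 to 54.4 ± 3.996 CPM (SD, n = 3 each; log2 fold change -0.62, SE 0.087, edgeR adjusted p = 0.014). Rasa4, which speeds the switching off of Ras, was the higher one (0.30 on the log2 scale, edgeR adjusted p = 0.048; named after its value was seen). Its relative Rasa3 had 261 ± 30.7 against 197 ± 10.5 CPM (SD, n = 3 each) with an adjusted p of 0.052 in edgeR's test. Lrig1, an inhibitor of receptor tyrosine kinases, stood at -0.91 on the log2 scale (adjusted p = 0.071) and Cbl, which marks receptors for breakdown, at -0.14 (adjusted p = 0.60, both from edgeR).

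Of the 11 other MAP kinase phosphatases tested, 1 was lower and 0 higher at an adjusted p under 0.05 in edgeR. The shares of all tested genes were 2.66% and 2.25%. At an unadjusted p under 0.05, 2 were lower and 1 higher, against 10.2% and 8.65%. DESeq2 called 1 lower and 0 higher, against 5.17% and 4.39%, and the median log2 fold change was -0.07. The lower one in edgeR was Dusp4, a nuclear phosphatase of ERK. It had 82, 83 and 82 counts in MSR1 KO and 199, 224 and 226 counts in MSR1 WT libraries. The 2 groups were well apart (log2 fold change -1.29, SE 0.19, edgeR adjusted p = 0.017). Dusp7, a cytoplasmic phosphatase of ERK like Dusp6, had 95.9 ± 3.08 CPM in MSR1 KO and 98.8 ± 10.1 CPM in MSR1 WT libraries (SD, n = 3 each; edgeR adjusted p = 0.85). Dusp9, also of that kind and at a mean of 1.01 CPM, gave a log2 value of -0.82 (adjusted p = 0.34), Dusp3 one of -0.27 (adjusted p = 0.11) and Dusp2, which is also nuclear, one of 0.65 (adjusted p = 0.21, all from edgeR).

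Other transcripts that are commonly induced through ERK had fold changes of both signs, 13 of 22 negative, against 50.4% of all tested genes. Of the 22 tested, 1 was lower and 0 higher at an adjusted p under 0.05 in edgeR (2.66% and 2.25% of all genes). At an unadjusted p under 0.05, 6 were lower and 3 higher (10.2% and 8.65% of all genes). DESeq2 called 3 lower and 0 higher (5.17% and 4.39% of all genes), and the median log2 fold change was -0.05. The lower one in edgeR was Epha4, an ephrin receptor, with 16, 28 and 12 counts in MSR1 KO and 75, 70 and 90 counts in MSR1 WT libraries (log2 fold change -1.96, SE 0.42, edgeR adjusted p = 0.039). Etv1, the remaining factor of the PEA3 group, gave a log2 value of -0.64 (adjusted p = 0.29), and Egr3, an immediate early transcription factor, had one of 0.82 (adjusted p = 0.20, both from edgeR). Junb, a subunit of AP-1, and the kinase Plk2, which had the highest CPM of the list, had log2 fold changes of 0.12 (adjusted p = 0.47) and -0.05 (edgeR adjusted p = 0.83).

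**Figure D3:**
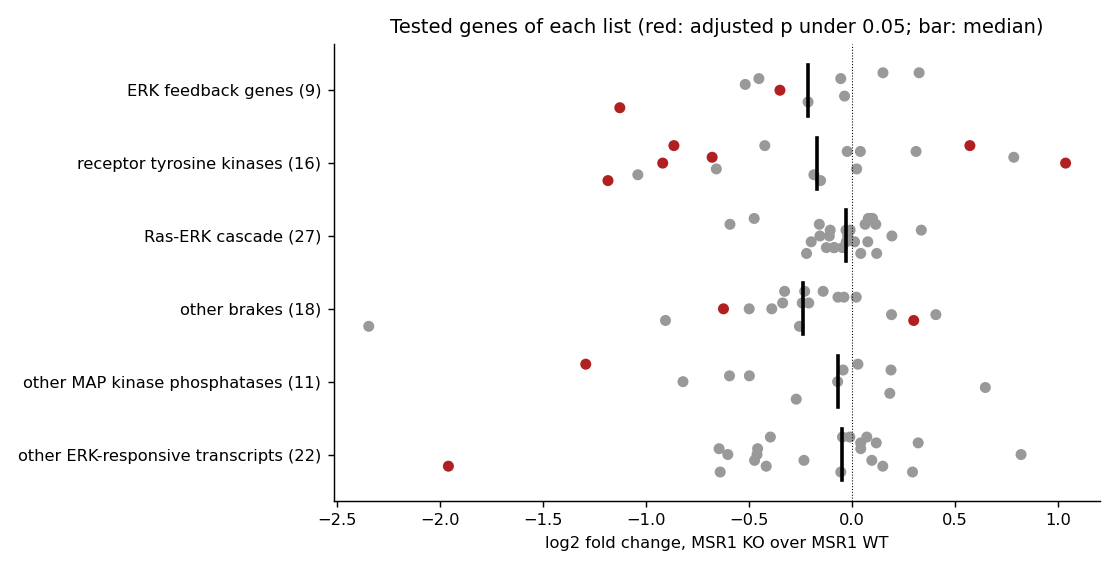
Each point is a tested gene of the list named on the vertical axis (number tested in brackets), placed by its log2 fold change, MSR1 KO over MSR1 WT. Red points have an adjusted p under 0.05 in edgeR and black bars are medians, which lie between -0.24 and -0.03, and the points of the Ras-ERK cascade are all grey.

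The genes whose pattern over the 6 libraries came nearest to that of a member were found among 13610 other genes with a mean of at least 1 CPM, by the root mean square difference of centred log2 CPM. For Spry1 they were Adamts5, a matrix protease (0.083), Cxcl12, a chemokine of marrow stroma (0.090), and Slc5a3, an inositol transporter (0.10 log2 units). Adamts5, Cxcl12 and Slc5a3 had log2 fold changes of -1.15, -1.11 and -1.09 in edgeR. Cxcl12 was also on the list of stromal markers. For Dusp5 the nearest were AI467606 (0.027), Golga7 (0.036) and Zfp956 (0.046), for Spred2 they were Dync2h1 (0.021), Plcg1 (0.029) and Gxylt1 (0.030), and for Etv4, the ETS member with the larger fold change, they were AC159290.1 (0.10), Hspb6 (0.12) and 4833413G10Rik (0.14). With 6 libraries and so many genes such closeness is a description only.

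Most stromal markers, and their sum, had lower values in MSR1 KO, as Spry1 and Etv5 had. Of 16 stromal markers, none was at 0 in all libraries. At an adjusted p under 0.05 in edgeR 5 were lower, against 2.66% of all tested genes. A negative log2 fold change was found for 13 of the 16, against 50.4% of all tested genes. The other 3 had positive values, of which Thy1, a surface protein of fibroblasts and T cells, had the largest fold change of the list, 6.43 CPM in MSR1 KO against 2.61 CPM in MSR1 WT (log2 fold change 1.31, edgeR adjusted p = 0.091, named after its value was seen), while Lum had 0.46 and Runx2 0.02. Their sum was 3325 ± 399 CPM in MSR1 WT and 2360 ± 342 CPM in MSR1 KO (SD, n = 3 each), a log2 ratio of -0.49, with each MSR1 KO library below each MSR1 WT library (exact permutation p = 0.1, the smallest possible here). The stromal markers with the highest CPM were Acta2 (655 CPM) and Col1a2 (597 CPM over 6 libraries). Within MSR1 WT, replicate 2 had the lowest value of both the stromal sum (2941 CPM) and Spry1 (4.55 CPM), while Etv5 was lowest in replicate 1. Within MSR1 KO, Spry1 was highest in replicate 1, where the stromal sum was lowest (2122 CPM). Etv5 was highest in MSR1 KO replicate 2 (36.03 CPM), where the stromal sum was highest (2752 CPM). The part of stromal RNA in the falls of Spry1, Etv5, Dusp4, Epha4 and the receptors was not tested.

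The lists of cells other than macrophages had lower sums than the stromal list in both genotypes. Endothelial markers summed to 111 to 134 CPM in MSR1 KO and 77.1 to 112 CPM in MSR1 WT libraries (6 of 6 tested, led by Pecam1 and Cdh5). Pecam1 was higher at an edgeR adjusted p of 0.027. The 1 endothelial marker with a negative log2 fold change, Vwf, had 3.18 CPM in MSR1 KO and 8.11 CPM in MSR1 WT. Its log2 fold change was -1.36 (edgeR adjusted p = 0.051, named after its value was seen). Neutrophil markers summed to 656 to 1066 and 427 to 812 CPM (9 of 9 tested, led by Ngp and S100a9). The sums of mast cell and basophil markers, 29.7 to 31.9 against 13.7 to 23.4 CPM, did not overlap, with Kit and Mcpt8 at the head of the 6 and Mcpt4 at 0 in all libraries. Lymphocyte markers gave 24.9 to 29.2 against 19.2 to 21.6 CPM, mostly from Cd79b and Ncr1 among 7. Erythroid markers stayed below 1 CPM in sum, led by Klf1 and Alas2 among 6, with the globin genes Hbb-bs and Hbb-bt at 0. Over the 12 macrophage markers, led by Lyz2 and Csf1r, the groups overlapped and the log2 ratio of the sums was -0.041, but 1 marker was higher and 1 lower at an adjusted p under 0.05. Fcgr1, a receptor for IgG, rose from 256 to 563 CPM (log2 fold change 1.14, edgeR adjusted p = 0.018), and Mrc1, the mannose receptor, fell from 1936 to 1480 CPM (log2 fold change -0.39, edgeR adjusted p = 0.037). Both were named after their values were seen.

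**Figure D4:**
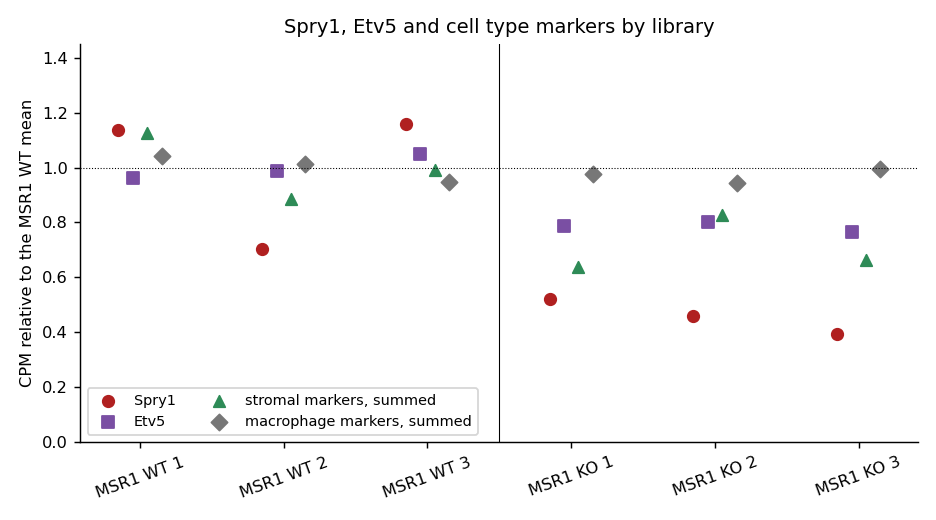
CPM of Spry1 (circles) and Etv5 (squares) and the summed CPM of stromal (triangles) and macrophage markers (diamonds) in each library, each divided by its MSR1 WT mean. The stromal sum, Spry1 and Etv5 are lower in all 3 MSR1 KO libraries than in any MSR1 WT library, and the macrophage sum stays near 1.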

How the data were processed

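RNA-seq of macrophages co-cultured with BMSCs was taken from 1 deposited table (MSR1 KO, 3 libraries, and MSR1 WT, 3 libraries). Raw counts per gene and library were deposited by the authors and used here. The table's other deposited columns, a signal (the count divided by a size factor) and the log2 fold change, p-value and adjusted p-value of the authors' own comparison, were not used. The study's methods name TopHat, while the submitters' processing notes list fastp 0.17.1, HISAT2 2.1.0, DESeq2 1.18.1 and R 3.4.3. The counting program, strand setting and genome build are not given in the sources used here. Of 52550 genes, 49909 (7 of the 9 members among them) had the same start and end in the GENCODE annotation of GRCm38, so positions are given on that build.

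edgeR 4.0.16 (R 4.3.3) was run with filterByExpr, TMM scaling, glmQLFit and glmQLFTest on all 16402 genes that passed, with Benjamini-Hochberg adjustment over all of them. Each SE was obtained as the fold change (log2) divided by the root of its F statistic, and intervals are 95%. TPM used the exon-union length of the annotation. The edgeR and DESeq2 p-values set the difference between the genotypes against the spread between libraries of the same genotype. The labels do not tie these 6 libraries to mice. The members and lists were chosen with earlier results of these data known, and the count ratios and motifs after these values were seen. Of each pathway list, the 3 largest fold changes at a mean of at least 1 CPM and the 2 genes of highest CPM are named, of each cell type list the 2 of highest CPM, and for the member of each family with the largest fold change the 3 genes nearest in pattern. Items that this rule names but that are withheld are not reported here. On simulated counts for this comparison, edgeR recovered 129 of 200 genes changed 2-fold among 16038, besides 12 wrong ones. DESeq2 1.42.0 found 152 of them and 44 wrong ones. Alternatives were DESeq2's Wald test, its size factors, total count alone, no filter, a minimum of 10 counts per library, a block for replicate number, omission of each library, and the longest transcript as length.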

Additional observations from a re-analysis of the deposited data

How the results depend on the processing

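The signs of 8 of the 9 log2 fold changes held under all 12 alternatives. The log2 fold change of Spred1 ranged from -0.087 to 0.010 with 1 library left out, the positive value being without MSR1 KO replicate 3. The number of members lower at an adjusted p under 0.05 was 2 with DESeq2's Wald test, its size factors, total count alone and at least 10 counts in every library, but 0 when every gene with any count was kept, where 25014 genes were tested and Spry1 had an adjusted p of 0.052 and Etv5 of 0.067 in edgeR. It was 0 to 1 with 1 library left out, which leaves fewer samples, and the number under the study's definition was then 1 to 2. At an unadjusted p under 0.05, 2 to 3 members were lower in every one of these fits, Spry1 and Etv5 among them. With the longest transcript as length, 7 of 9 members kept their rank by TPM. Under each scaling the all-gene median stayed within 0.1 of its main value (log2).

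With the replicate number as a block (replicate block), 0 members were lower at an adjusted p under 0.05, with 2 lower at an unadjusted p under 0.05, and the log2 fold changes were -1.10 for Spry1 and -0.35 for Etv5. Same-numbered libraries did not deviate together (correlations of -0.026, 0.019 and -0.0048 across genes), so the numbers were not taken to pair the samples, and not every library correlated best with its own number. Over all genes, 436 lower and 369 higher calls became 78 and 59 with the block, 848 and 720 with DESeq2, 288 and 237 without a filter, and 53 to 372 and 18 to 407 with 1 library left out.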
